A study of Mus musculus with 16 samples.

Results

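The genes studied act in the G1 phase of the cell cycle: the D-type cyclins Ccnd1, Ccnd2 and Ccnd3, the E-type cyclins Ccne1 and Ccne2, the inhibitors Cdkn1b (p27) and Cdkn2a (p16 and p19Arf), the pocket protein gene Rb1, and the transcription factor genes Myc and Mycn. They were chosen by name, and all probes that the array files give for these 10 names were used. That came to 20 of 41174 probes, printed as 65 spots on each array. Of these, 18 probes passed the filter on dim probes, and each of the 10 genes kept at least 1 probe, among 18282 genes tested in all.

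RNA came from E14 mouse embryonic stem cells that stably express a short hairpin RNA from a lentiviral vector, either a control (sh-Control) or one that targets Sirt1 (sh-SIRT1), which encodes an NAD-dependent deacetylase. All cells were kept in M10 medium with leukocyte inhibitory factor, a cytokine that holds stem cells undifferentiated. They received the vehicle ethanol or 20 nM RA (retinoic acid, a vitamin A derivative that drives differentiation) for 2 days. The 16 arrays comprise 3 of sh-Control vehicle, 4 of sh-Control RA, 3 of sh-SIRT1 vehicle and 6 of sh-SIRT1 RA, with 1 line per hairpin named in the labels.

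D-type cyclins bind Cdk4 and Cdk6, and E-type cyclins bind Cdk2. Both kinase pairs phosphorylate the Rb1 protein, which then releases E2F factors that switch on genes of DNA replication. Cdkn1b restrains cyclin E with Cdk2, the p16 product of Cdkn2a restrains Cdk4 and Cdk6, and its p19Arf product acts on p53 through Mdm2. Mouse embryonic stem cells are known for a short G1 phase with abundant cyclin E, little D-type cyclin and little inhibitor, and they depend on the Myc family, of which they express Myc and Mycn. Messenger RNA was measured here, whereas much of the control of cyclin E, p27 and Rb acts on the proteins.

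Expression values are log2 of the intensity relative to the 75th percentile of the same array, so 0 is the level of a probe at that percentile, and levels of different genes cannot be compared. Differences are log2 differences ± standard error (SE) from limma over all genes, and a gene passed where its Benjamini-Hochberg adjusted p was under 0.05. Sirt1 itself was lower in the sh-SIRT1 line (log2 difference -1.81 ± 0.15 in vehicle, adjusted p = 4.05e-05, and -2.18 ± 0.12 under RA, adjusted p = 2.48e-07), where every sh-Control array read 3.28 or more and every sh-SIRT1 array 1.89 or less. All 9 stem cell markers with a probe, of 10 listed, were well above background on each array. Under RA 4 of them fell and 1 rose in sh-Control cells and 6 fell and 1 rose in sh-SIRT1 cells (medians -0.31 and -0.80), and 4 were lower in sh-SIRT1 than in sh-Control cells under RA (median -0.47). Of all genes, 27.2% passed as lower and 19.7% as higher under RA in sh-Control cells, and 35.3% and 23% in sh-SIRT1 cells. Between the lines under RA, 11.7% of all genes passed as lower in sh-SIRT1 cells. The sh-Control RA arrays 2, 3 and 4 stood apart: the Y-linked gene Ddx3y was at -6.91, -8.01 and -8.12 there, not well above background, against 0.23 on array 1 and 0.33 to 1.60 in vehicle. Eif2s3y, also Y-linked, was at -2.89, -2.53 and -2.51 there, still well above background, against 1.98 on array 1. Y-linked Uty was not well above background there, and Kdm5d on no array of any group. A difference of the cells on these 3 arrays cannot be told apart from RA, so results for sh-Control cells under RA are also given with array 1 alone, for which limma assumes the spread of the other groups. Markers of primitive endoderm, a cell type that RA can induce, also differed among arrays: their summed level, in multiples of the 75th percentile, was 11.6 to 21.0 in vehicle, 102, 32.4, 17.2 and 16.4 on the sh-Control RA arrays 1 to 4, and 25.0 to 41.4 in sh-SIRT1 cells under RA. Of its 14 markers 10 to 11 were well above background per vehicle array and 11 to 13 per RA array, and no vehicle array had Pdgfra or Afp well above background. Fibroblast markers, listed for feeder cells, summed to 8.56 to 8.99 in sh-Control and 3.27 to 3.85 in sh-SIRT1 cells in vehicle, 8.30 to 20.6 in sh-Control and 9.74 to 16.7 in sh-SIRT1 cells under RA. The part of these markers in the results below was not tested, and on whole-culture RNA fewer cells of a type and less RNA per cell cannot be told apart.

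What the array reads is a 60-base stretch of each messenger RNA. The 6 probes printed here belong to members on which the results turn, and were picked because each is open in at least 1 reading frame. They are in lower case throughout, as no part is singled out. In the headers' mm7 coordinates, the Ccnd2 probes lie at chr6:127163669-127163728 and chr6:127173178-127173237, the Ccne2 probe at chr4:11130171-11130230, the Cdkn1b probe at chr6:134935407-134935465, the Myc probe at chr15:62063665-62063724 and the Mycn probe at chr12:13000197-13000256. Exons were not annotated here.
Ccnd2, probe that represents the gene: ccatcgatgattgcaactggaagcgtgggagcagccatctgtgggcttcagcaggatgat
Ccnd2, other probe: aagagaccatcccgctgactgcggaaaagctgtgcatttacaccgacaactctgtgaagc
Ccne2, probe that represents the gene: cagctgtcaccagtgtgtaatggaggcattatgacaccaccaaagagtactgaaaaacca
Cdkn1b, probe that represents the gene: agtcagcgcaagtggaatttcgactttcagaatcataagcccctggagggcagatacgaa
Myc, other probe: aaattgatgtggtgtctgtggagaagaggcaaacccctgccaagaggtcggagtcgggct
Mycn, other probe: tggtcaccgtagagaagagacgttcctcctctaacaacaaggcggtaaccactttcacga

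Under RA Mycn fell by 2.16 and Ccnd1 fell by 1.91 in sh-Control cells, and both fell in sh-SIRT1 cells too. Ccne1 and Myc also fell in both lines, and Cdkn1b fell in both by smaller amounts. Ccnd2 went the other way in sh-SIRT1 cells, rising by 2.28. In sh-Control cells 5 of the 10 genes passed as lower and 1 as higher, where 46.8% of all genes passed (27.2% lower, 19.7% higher). In sh-SIRT1 cells 6 passed as lower and 1 as higher, where 58.2% of all genes passed (35.3% lower, 23% higher). The members' shares in either direction, 6 and 7 of 10, are close to these. The median of all genes was itself lower by 0.14 in the sh-Control line and 0.13 in the sh-SIRT1 line under RA, to which the differences are to be compared, and the members' median was -0.10 and -0.56.

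**Figure D1:**
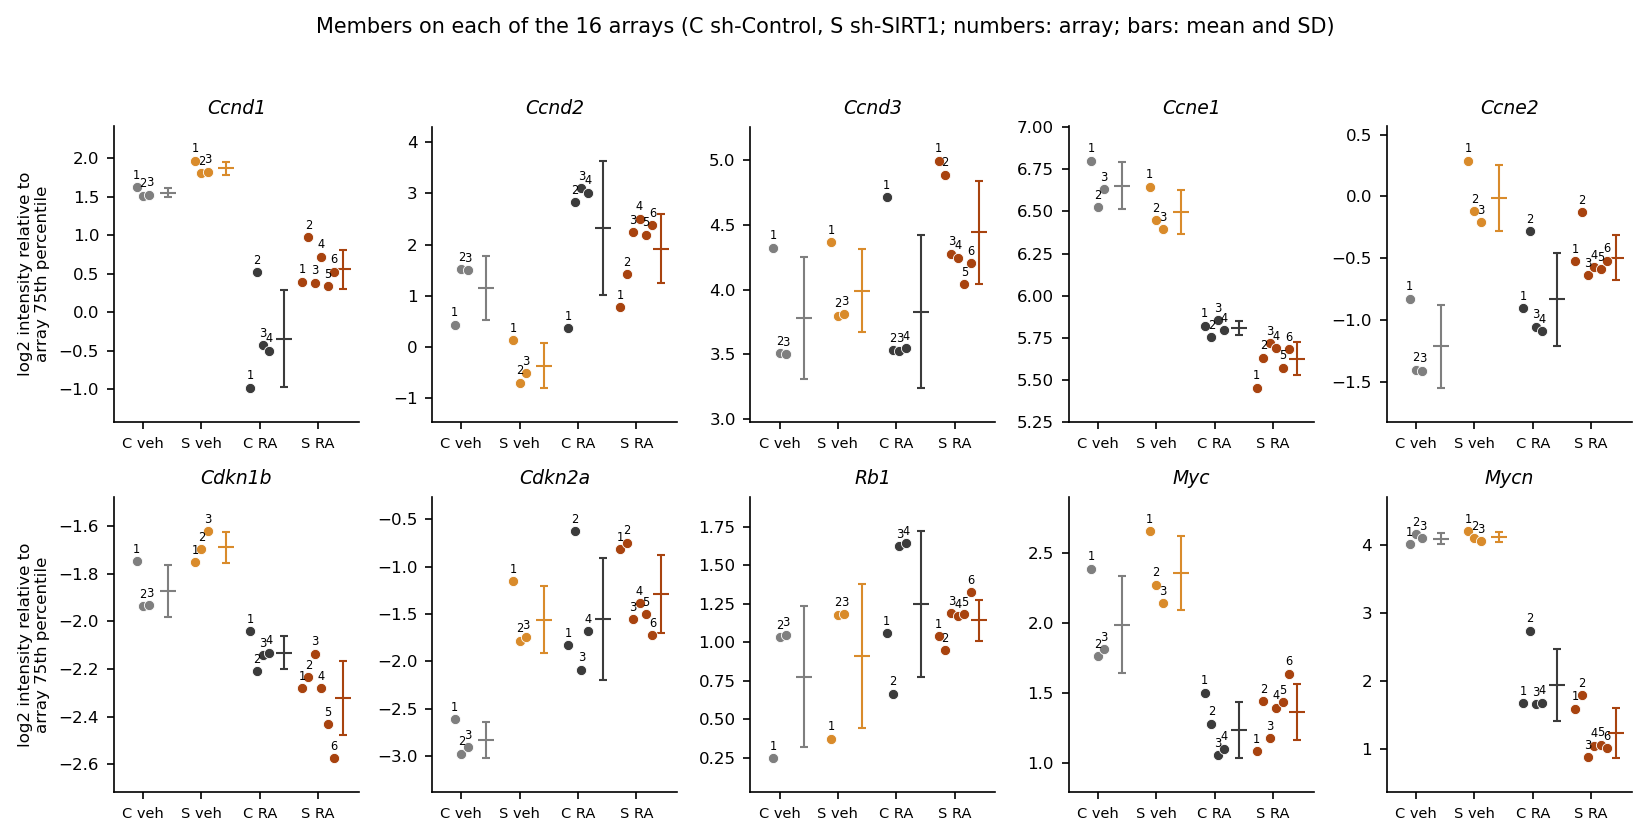
Levels of the 10 genes on each array, as log2 intensity relative to the array's 75th percentile, for sh-Control (C) and sh-SIRT1 (S) cells in vehicle (veh) and under RA; points are arrays with their numbers, bars the mean and SD of 3, 3, 4 and 6 arrays, and each panel has its own scale. Mycn, Ccnd1, Ccne1 and Myc lie lower on every RA array than on any vehicle array, while Ccnd2 on sh-Control RA array 1 is at 0.36, below the 2.83 to 3.10 of the other 3.

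Ccnd1, the D-type cyclin whose gene responds to growth factor signals, was at 1.62, 1.51 and 1.53 in sh-Control vehicle and at -0.99, 0.52, -0.43 and -0.50 in sh-Control RA. In sh-SIRT1 cells it was at 1.97, 1.81 and 1.83 in vehicle, and at 0.34, 0.46 and 0.98 (lowest, median and highest of 6) under RA. No RA array reached a vehicle array in either line. It fell by 1.91 ± 0.26 in sh-Control cells (3.75-fold, adjusted p = 4.82e-05) and by 1.31 ± 0.24 in sh-SIRT1 cells (2.48-fold, adjusted p = 0.000313). Against array 1 alone the sh-Control difference was -2.54 (adjusted p = 2.34e-05).

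Ccnd2, the D-type cyclin with 3 probes spread over 19168 bases of chromosome 6, showed the widest spread among arrays. It was at 0.44, 1.52 and 1.50 in sh-Control vehicle and at 0.36, 2.83, 3.10 and 3.01 in sh-Control RA. In sh-SIRT1 cells the vehicle values were 0.13, -0.70 and -0.52, and the RA values were 0.78, 2.22 and 2.51 (lowest, median and highest of 6). The RA arrays of sh-SIRT1 cells all lay above the vehicle arrays, whereas in sh-Control cells array 1 of RA lay below every vehicle array and the other 3 above. Ccnd2 rose by 2.28 ± 0.55 in sh-SIRT1 cells (4.87-fold, adjusted p = 0.00277). The sh-Control difference, 1.17 ± 0.60, did not pass (adjusted p = 0.121, 95% interval -0.11 to 2.46). Against array 1 alone it turned to -0.79. Over single arrays left out it ran from 0.82 to 1.83, the highest being without RA array 1. It passed in 1 of 27 alternatives (limma adjusted p = 0.00358). Array 1 of sh-Control RA is the array with the primitive endoderm sum of 102, and the only one of its group with Ddx3y well above background. The lowest Ccnd2 values of sh-SIRT1 cells under RA, 0.78 and 1.43, were on arrays 1 and 2, where that sum was 41.2 and 41.4, against 25.0 to 27.8 on the other 4 arrays. The summed level of 8 neural progenitor markers was 7.27, 10.5, 9.99 and 9.55 on the sh-Control RA arrays 1 to 4, against 7.54 to 7.99 in vehicle. In sh-SIRT1 cells it was 5.87 to 6.60 in vehicle and 8.80 to 12.1 under RA. It was lowest there on array 1, but 11.2 on array 2, where Ccnd2 was at 1.43. Of the 7 markers tested, 2 passed as higher under RA in sh-Control cells (median -0.02), beside 19.7% of all genes. In sh-SIRT1 cells 4 did (median 0.44), beside 23% of all genes. Of all 8 markers 6 to 7 were well above background on each array, and their part in the Ccnd2 values was not tested.

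Ccnd3, the remaining D-type cyclin, had no RA difference that passed in the fit described above. It was at 4.32, 3.51 and 3.50 in sh-Control vehicle, 4.71, 3.53, 3.53 and 3.55 in sh-Control RA, and 4.36, 3.80 and 3.81 in sh-SIRT1 vehicle, with 4.04, 4.26 and 5.00 (lowest, median and highest of 6) in sh-SIRT1 RA. In each of the 4 groups array 1 was highest. The RA differences were 0.05 ± 0.33 in sh-Control (adjusted p = 0.909, 95% interval -0.65 to 0.75) and 0.45 ± 0.30 in sh-SIRT1 cells (adjusted p = 0.216, interval -0.20 to 1.10). Against array 1 alone the sh-Control difference was 0.94 (adjusted p = 0.113), above that interval. The sh-SIRT1 difference passed with quantile normalization (0.79, adjusted p = 0.0269) and with the replicate block across treatments (0.72, adjusted p = 0.00691).

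Ccne1, the cyclin E known for its high level in stem cells, was at 6.80, 6.53 and 6.63 in sh-Control vehicle and at 5.82, 5.75, 5.86 and 5.80 in sh-Control RA. In sh-SIRT1 cells it was at 6.65, 6.45 and 6.39 in vehicle and at 5.45, 5.66 and 5.72 (lowest, median and highest of 6) under RA. These were the tightest groups of the 10 genes under RA in sh-Control cells, with an SD of 0.04. It fell by 0.85 ± 0.09 in the sh-Control line (1.80-fold, adjusted p = 7.04e-06) and by 0.87 ± 0.09 in the sh-SIRT1 line (1.83-fold, adjusted p = 1.44e-06), and the difference between them was -0.03 with a 95% interval of -0.29 to 0.24. Against array 1 alone the sh-Control difference was -0.83.

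Ccne2, the second E-type cyclin, did not follow Ccne1. It was at -0.83, -1.40 and -1.41 in sh-Control vehicle and -0.90, -0.28, -1.05 and -1.09 in sh-Control RA. In sh-SIRT1 cells it was at 0.29, -0.12 and -0.21 in vehicle and -0.64, -0.55 and -0.13 (lowest, median and highest of 6) under RA. All 4 sh-Control RA arrays lay above the sh-Control vehicle mean of -1.21, and all 6 sh-SIRT1 RA arrays below the sh-SIRT1 vehicle mean of -0.01, though the groups overlap in both lines. The sh-Control difference, 0.38 ± 0.21, did not pass (adjusted p = 0.145), and in the sh-SIRT1 line Ccne2 fell by 0.48 ± 0.19 (adjusted p = 0.0431). The latter missed the threshold with normexp background correction (-0.38, adjusted p = 0.111), with slide as a block (-0.43, adjusted p = 0.108) and with the replicate block across treatments (-0.39, adjusted p = 0.133). Against array 1 alone the sh-Control difference was 0.31 (adjusted p = 0.402).

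Cdkn1b, the p27 inhibitor, was at -1.75, -1.94 and -1.93 in sh-Control vehicle, and its sh-Control RA arrays lay between -2.21 and -2.04. In sh-SIRT1 cells it was at -1.75, -1.70 and -1.62 in vehicle and at -2.57, -2.28 and -2.14 (lowest, median and highest of 6) under RA. Vehicle and RA arrays did not overlap in either line. It fell by 0.26 ± 0.10 in sh-Control cells (adjusted p = 0.0465) and by 0.63 ± 0.09 in sh-SIRT1 cells (1.55-fold, adjusted p = 5.22e-05). The sh-Control difference is near the all-gene median of -0.14, and did not pass with array 1 alone (-0.17, adjusted p = 0.442), with normexp correction (-0.11, adjusted p = 0.830), with slide as a block (-0.19, adjusted p = 0.160) or with only the groups compared (adjusted p = 0.0968). With that correction the sh-SIRT1 difference was -0.35 (adjusted p = 0.198).

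Cdkn2a rose under RA in sh-Control cells and was already higher in sh-SIRT1 vehicle. It was at -2.61, -2.98 and -2.91 in sh-Control vehicle, -1.83, -0.62, -2.09 and -1.69 in sh-Control RA, and -1.16, -1.78 and -1.75 in sh-SIRT1 vehicle, with -1.73, -1.44 and -0.75 (lowest, median and highest of 6) in sh-SIRT1 RA. The 3 sh-Control vehicle arrays were lower than each of the other 13. Under RA it rose by 1.28 ± 0.32 in sh-Control cells (2.42-fold, adjusted p = 0.00501), with a difference of 1.01 against array 1 alone that did not pass (adjusted p = 0.0633). In sh-SIRT1 cells the difference was 0.27 ± 0.30 (adjusted p = 0.452, 95% interval -0.36 to 0.91). Its single probe, printed 10 times, is named for transcript variant 1 in the files, and whether it reads the p16 or the p19Arf messenger, which share their last exons, was not told apart here.

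Rb1, the pocket protein that Cdk4 and Cdk2 phosphorylate, was at 0.25, 1.03 and 1.05 in sh-Control vehicle, 1.06, 0.67, 1.62 and 1.64 in sh-Control RA and 0.37, 1.18 and 1.18 in sh-SIRT1 vehicle. Under RA sh-SIRT1 cells gave 0.95, 1.17 and 1.33 (lowest, median and highest of 6). Array 1 was the lowest vehicle array of both lines by over 0.7. Rb1 passed in no contrast, and its RA differences were 0.47 ± 0.26 in sh-Control (95% interval -0.09 to 1.04) and 0.23 ± 0.24 in sh-SIRT1 cells (interval -0.29 to 0.75). Against array 1 alone the sh-Control difference was 0.28 (adjusted p = 0.567).

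Myc was at 2.39, 1.76 and 1.81 in sh-Control vehicle and 1.50, 1.28, 1.06 and 1.10 in sh-Control RA. In sh-SIRT1 cells it was at 2.66, 2.27 and 2.14 in vehicle and 1.09, 1.41 and 1.64 (lowest, median and highest of 6) under RA. No RA array reached a vehicle array of its line. Myc fell by 0.75 ± 0.18 in the sh-Control line (1.68-fold, adjusted p = 0.00374) and by 1.00 ± 0.17 in the sh-SIRT1 line (2.00-fold, adjusted p = 0.000158). Against sh-Control RA array 1 alone it did not pass (-0.48, adjusted p = 0.205).

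Mycn, the Myc family gene of stem and progenitor cells, was at 4.02, 4.17 and 4.11 in sh-Control vehicle and 4.21, 4.11 and 4.06 in sh-SIRT1 vehicle, the narrowest vehicle range of the 10 genes. Under RA it was at 1.68, 2.75, 1.67 and 1.68 in sh-Control cells and at 0.88, 1.06 and 1.79 (lowest, median and highest of 6) in sh-SIRT1 cells. Every RA array lay more than 1.2 below every vehicle array. Mycn fell by 2.16 ± 0.26 in sh-Control (4.45-fold, adjusted p = 1.79e-05) and by 2.89 ± 0.24 in sh-SIRT1 cells (7.42-fold, adjusted p = 3.48e-07), and by 2.42 against array 1 alone (adjusted p = 0.000221).

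**Figure D2:**
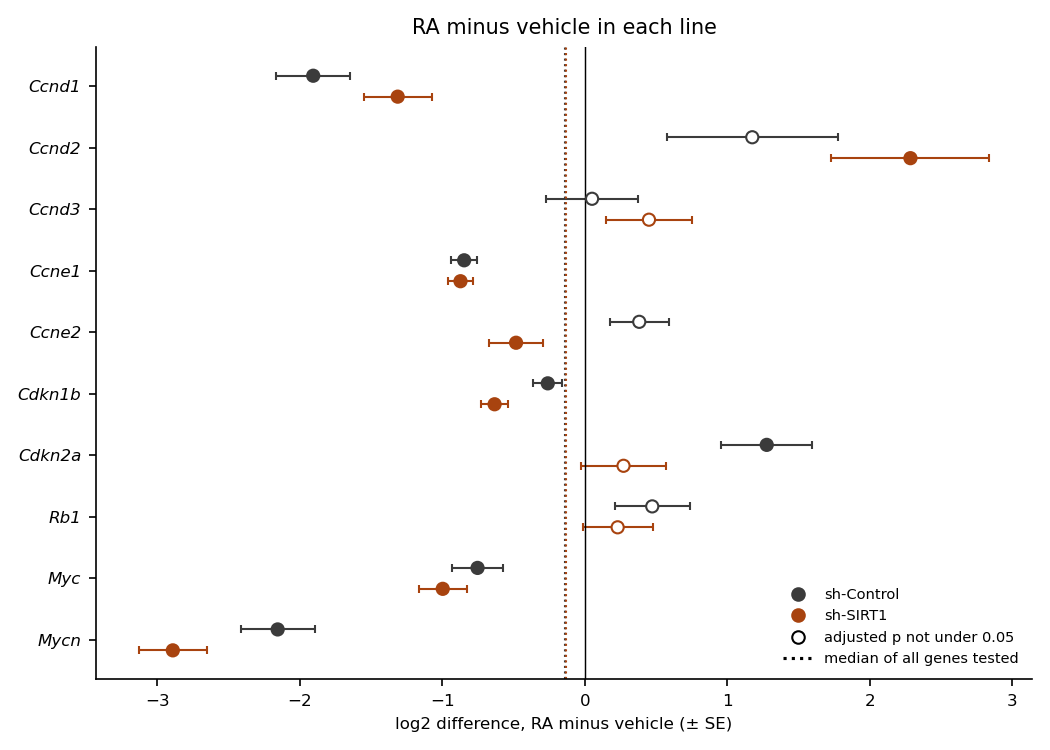
Log2 difference RA minus vehicle of the 10 genes in sh-Control (grey) and sh-SIRT1 (brown) cells, with SE bars; filled points passed at an adjusted p under 0.05, and dotted lines mark the medians of all genes, -0.14 and -0.13. Mycn is lowest in both lines, at -2.16 and -2.89, and Ccnd2 is highest in sh-SIRT1 cells, at 2.28.

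Genes with several probes gave like RA differences from each. For the sh-Control line and then the sh-SIRT1 line, the 3 Ccnd2 probes gave 1.17, 1.17 and 1.18, then 2.28, 2.24 and 2.28. The Mycn probes gave -2.16 and -2.10, then -2.89 and -2.81, and the 3 Myc probes -0.75, -0.67 and -0.67, then -0.997, -1.05 and -1.11. Ccne2 gave 0.38 and 0.24, then -0.48 and -0.49. Cdkn1b differed more, with -0.26 and -0.36, then -0.63 and -0.41 from its 2 kept probes. Ccne1 gave -0.85 from both, then -0.87 and -0.68. The 2 probes left out, of Cdkn1b and Rb1, were well above background on 4 and 7 of the 16 arrays. Probes printed 10 times (Ccnd1, Cdkn1b, Cdkn2a, Myc and Rb1) had a median SD between spots of 0.044 to 0.067 and at most 0.107.

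**Figure D3:**
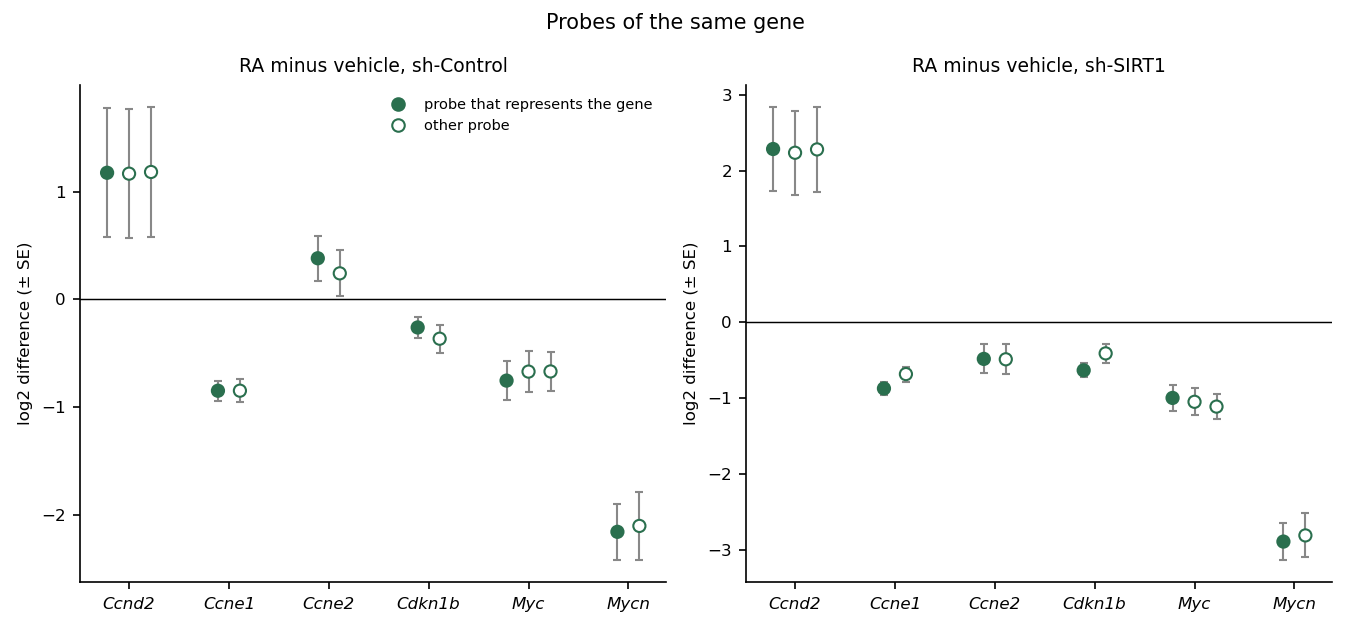
Log2 difference RA minus vehicle, with SE, for each kept probe of the 6 genes with more than 1, in sh-Control (left) and sh-SIRT1 (right) cells; filled points are the probe that represents the gene. The 3 Ccnd2 probes coincide at about 1.17 to 1.18 and 2.24 to 2.28, and the widest gap is that of Cdkn1b in sh-SIRT1 cells, -0.63 against -0.41.

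Between the lines in vehicle, Ccne2 and Cdkn2a were higher in sh-SIRT1 cells, and no member passed as lower, where 8.62% of all genes passed (4.41% higher, 4.21% lower). Ccne2 was higher by 1.20 ± 0.22 (2.30-fold, adjusted p = 0.00466) and Cdkn2a by 1.27 ± 0.34 (2.41-fold, adjusted p = 0.0332), and the sh-SIRT1 arrays of both lay above all sh-Control arrays. The second Ccne2 probe gave 1.14. The Cdkn2a difference missed the threshold with normexp correction (0.86, adjusted p = 0.163) and with slide as a block (1.14, adjusted p = 0.102). Ccnd2 was lower on all 3 sh-SIRT1 arrays, yet its difference of -1.51 ± 0.64 did not pass (adjusted p = 0.164, 95% interval -2.89 to -0.14). For the other genes the differences ran from -0.16 (Ccne1) to 0.37 (Myc), and that of Mycn was 0.03 with an interval of -0.57 to 0.62.

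Under RA other members passed: Ccnd1 was higher and Mycn lower in sh-SIRT1 cells, where 20.3% of all genes passed (8.59% higher, 11.7% lower). Ccnd1 differed by 0.91 ± 0.22 (1.87-fold, adjusted p = 0.00995), although sh-Control array 2, at 0.52, lay within the sh-SIRT1 range, and against sh-Control array 1 alone the difference was 1.54 (adjusted p = 0.0016). Mycn differed by -0.71 ± 0.22 (1.64-fold, adjusted p = 0.0347), with sh-SIRT1 array 2, at 1.79, above 3 of the 4 sh-Control arrays. Against sh-Control array 1 alone Mycn did not pass (-0.45, adjusted p = 0.348), nor did its second probe (-0.74, adjusted p = 0.0611 in the fit over probes). The Mycn call was also lost with slide as a block (-0.69, adjusted p = 0.0879), with normexp correction (-0.65, adjusted p = 0.135) and with only the groups compared (adjusted p = 0.0853).

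Same-numbered arrays of the 2 lines deviated together within a treatment, and with the replicate number as a block within treatment 2 more members passed under RA. Ccnd3 was then higher in sh-SIRT1 cells by 0.77 (adjusted p = 0.0136, against 0.61 and 0.135 without the block) and Ccne2 by 0.37 (adjusted p = 0.0135, against 0.34 and 0.197). That block sets sh-SIRT1 RA arrays 5 and 6, which have no partner, aside. With a block of the same number across treatments, Ccnd3 passed (adjusted p = 0.0144), Ccne2 did not (adjusted p = 0.210) and Mycn no longer did (-0.61, adjusted p = 0.0749). Against sh-Control array 1 alone the Ccnd3 difference turned to -0.27 (adjusted p = 0.691).

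**Figure D4:**
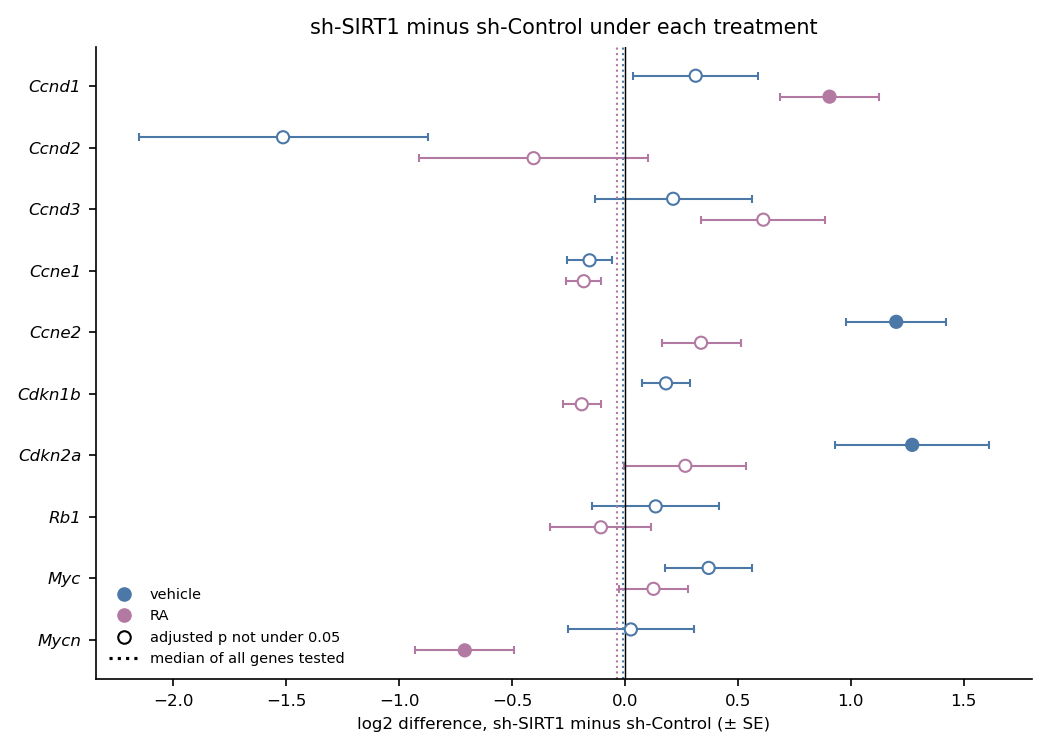
Log2 difference sh-SIRT1 minus sh-Control of the 10 genes in vehicle (blue) and under RA (purple), with SE bars; filled points passed at an adjusted p under 0.05, and dotted lines mark the medians of all genes, -0.01 and -0.04. Ccne2 (1.20) and Cdkn2a (1.27) pass in vehicle, and Ccnd1 (0.91) and Mycn (-0.71) under RA.

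Whether the RA effect itself differed between the lines was tested as a difference of differences, and 0 of the 10 members passed in limma, where 3.59% of all genes did (1.71% higher, 1.88% lower). At an unadjusted p under 0.05 there were 3: Ccne2 (-0.86 ± 0.28, unadjusted p = 0.0084, adjusted p = 0.0996), Cdkn1b (-0.37 ± 0.14, adjusted p = 0.139) and Cdkn2a (-1.005 ± 0.44, adjusted p = 0.213). By limma p in this contrast, Cdkn2a (unadjusted p = 0.0369) ranked 3169 and Mycn (unadjusted p = 0.0567) ranked 3928 among 18282 genes. Many genes thus reach that cut, and the 3 are not read as a result about the members. With the replicate number as a block within treatment Ccne2 passed (-0.83, adjusted p = 0.0183), but not with that block across treatments (adjusted p = 0.157). The second Cdkn1b probe gave -0.05. For Ccnd1 the difference was 0.59 ± 0.35 (95% interval -0.16 to 1.35), and 1.23 with sh-Control RA array 1 alone, where it passed (adjusted p = 0.0439). Mycn gave -0.74 ± 0.35 (interval -1.50 to 0.02), and Ccnd2 1.11 ± 0.82 (interval -0.64 to 2.86). The contrasts share arrays and are not independent: the RA effect of a line and the line difference in vehicle use the same vehicle arrays, and the RA effects and the line difference under RA use the same RA arrays.

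Within single slides, each of which held 4 arrays of 3 or 4 groups, the RA differences of Mycn ran from -2.43 to -2.35 in sh-Control (2 slides) and from -3.14 to -2.72 in sh-SIRT1 cells (3 slides). Ccnd1 gave -2.52 to -2.06 and -1.64 to -1.09, and Ccne1 -0.95 to -0.81 and -1.08 to -0.72. Ccnd2 gave 2.06 to 3.21 in sh-SIRT1 cells, but -1.13 and 2.66 on the 2 slides in sh-Control cells. Of the line differences in vehicle, Ccne2 gave 0.71 and 1.20 and Cdkn2a 0.83 and 1.23 on 2 slides. Under RA Ccnd1 gave 0.33 to 1.45 and Mycn -1.15 to -0.38 over 3 slides.

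RefSeq promoter sequences (build GRCm38.p6) matched 5 of the 10 genes, Ccnd3, Ccne1, Cdkn1b, Cdkn2a and Mycn, with 7 start sites. Those of Mycn and Ccne1, which fell together under RA in both lines, are printed over the 250 bases before the start, on the minus strand, at chr12:12941837-12942086 and chr7:38107491-38107740. Capitals mark the E2F letters TTTGGCGC, TTTCGCGC, TTTCCCGC and TTTGCCGC on either strand.
Mycn: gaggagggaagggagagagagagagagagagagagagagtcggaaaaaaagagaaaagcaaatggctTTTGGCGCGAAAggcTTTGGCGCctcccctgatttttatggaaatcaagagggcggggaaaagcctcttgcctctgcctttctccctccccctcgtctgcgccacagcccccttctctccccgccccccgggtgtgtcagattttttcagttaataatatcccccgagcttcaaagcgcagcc
Ccne1: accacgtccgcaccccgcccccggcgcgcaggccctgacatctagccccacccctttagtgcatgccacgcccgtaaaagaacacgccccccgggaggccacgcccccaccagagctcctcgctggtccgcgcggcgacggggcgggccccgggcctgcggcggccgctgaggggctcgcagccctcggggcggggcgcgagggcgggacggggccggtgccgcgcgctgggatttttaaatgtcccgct

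In the Mycn window there were 3 E2F matches, starting 183, 179 and 168 bases before the start site, of which the first and the next overlap. The Ccne1 window had none of these letters, and of the other member windows only 1 of the pair of Cdkn2a had a match, 99 bases before its start. Such a match occurs in 1.86% of the 32851 promoters of the same length. The GC box GGGCGG was found 2 times in the Mycn and 4 times in the Ccne1 window, and is in 32.7% of promoters. The E-box CACGTG, the letters that Myc with Max binds, was in no member window, against 6.02% of promoters. The same held for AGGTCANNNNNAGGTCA, a retinoic acid receptor repeat, which is in 0.00913% of promoters. These are letters in a window, and no binding was measured.

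Other genes of the same pathways were read from lists. Among 13 G1 kinases, other inhibitors and turnover factors, 2 passed as higher and 3 as lower under RA in sh-Control cells, and 3 and 6 in sh-SIRT1 cells. Against the shares of all genes, 19.7% higher and 27.2% lower for the sh-Control line, 23% and 35.3% for the sh-SIRT1 line, these counts are near the background. Cdk6, the kinase partner of D-type cyclins, fell by 1.30 and 0.93, Cdk4 fell by 0.70 in sh-Control, and Cdc25a, the phosphatase that activates Cdk2, fell by 0.81 in sh-SIRT1 cells. Cdkn2c, the p18 inhibitor of Cdk4 and Cdk6, rose by 0.94 and 1.29. Between the lines under RA, Cdkn1a (p21) was higher in sh-SIRT1 cells by 0.71 and Cdk6 by 0.60, and none of the 13 passed in vehicle. The shares of all genes were 20.3% between the lines under RA, 8.62% in vehicle and 3.59% for the difference of RA effects. Cdkn1a was the only one of the 13 with a passing difference of RA effects (0.97), and none of them passed there with array 1 alone, slide as a block or normexp correction.

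Of 12 pocket protein and E2F genes, 5 fell in the sh-Control line and 7 in the sh-SIRT1 line under RA, with 0 and 1 higher, where 27.2% and 35.3% of all genes passed as lower. E2f8 and E2f2 fell by 0.89 and 0.85 and E2f4 by 0.74 in sh-Control cells, while Rbl2 (p130) fell by 1.31, E2f8 by 1.10 and Tfdp1, the DNA-binding partner of E2F proteins, by 0.98 in sh-SIRT1 cells. With array 1 alone fewer of the 12 passed as lower in sh-Control cells, and fewer of all genes passed there too. Tfdp1 was higher in sh-SIRT1 cells by 1.01 in vehicle and 0.61 under RA, the only one of the 12 to pass in either. Between the lines 8.62% of all genes passed in vehicle and 20.3% under RA. In the Myc network of 10 genes, 5 fell and 1 rose in sh-Control and 4 fell and 2 rose in sh-SIRT1 cells, beside the same shares of all genes (27.2% and 35.3% lower, 19.7% and 23% higher). Mxd4, a Max partner that represses Myc targets, rose by 0.96 and 1.70. Mnt, another Max-binding repressor, fell by 0.89 and 0.80, and Mga fell by 0.99 in sh-Control cells. Mycl, the third Myc family gene, rose by 0.73 in sh-SIRT1 cells. Zbtb17 (Miz1) was lower in sh-SIRT1 cells by 0.46 in vehicle, where 4.21% of all genes passed as lower.

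Most listed target genes of E2F and Myc fell under RA. Of 20 E2F targets of DNA replication 15 fell in the sh-Control line and 19 in the sh-SIRT1 line under RA and none rose, against 27.2% and 35.3% of all genes that passed as lower. Their medians were -0.41 and -0.57, against -0.14 and -0.13 for all genes. Pola1, a DNA polymerase subunit, fell by 0.71 and 0.95, and Rrm2, a ribonucleotide reductase subunit, by 0.66 and 0.93. Of 15 Myc targets 14 fell in each line and none rose, with medians of -0.58 and -0.63. Srm (spermidine synthase) fell by 0.91 and 0.97 and Nolc1, a nucleolar protein, by 0.91 and 1.16. With sh-Control RA array 1 alone, fewer of the E2F targets and of the Myc targets passed in sh-Control cells. Fewer of all genes passed there too. For the difference of RA effects 0 of the 35 passed in limma, where 3.59% of all genes did. Between the lines in vehicle 2 E2F targets (Tyms 0.42, Mcm5 0.37) and no Myc target passed. Under RA Mcm5 (0.44) and Rrm1 (0.27) were higher and Orc1 (-0.45), Nolc1 (-0.31) and Bop1 (-0.30) lower in sh-SIRT1 cells. Beside these counts, 8.62% of all genes passed in vehicle (4.41% higher, 4.21% lower) and 20.3% under RA (8.59% higher, 11.7% lower).

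**Figure D5:**
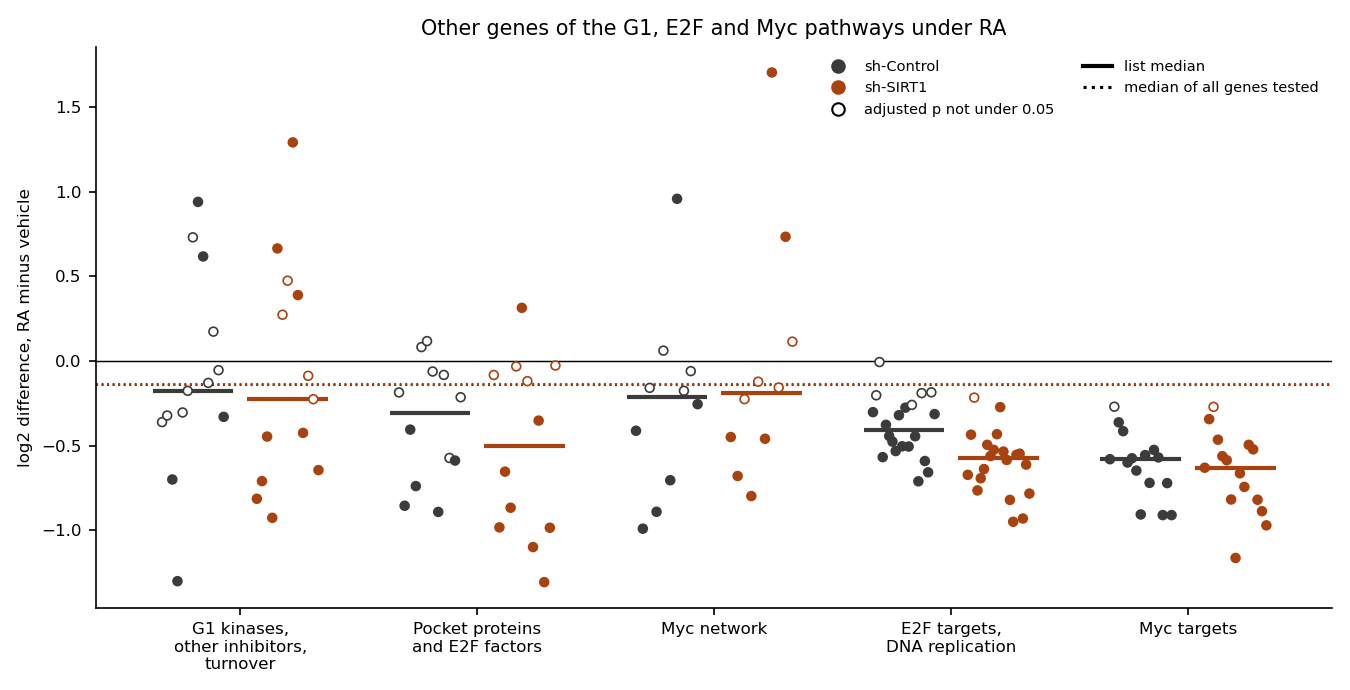
Log2 difference RA minus vehicle of each gene in 5 lists, in sh-Control (grey) and sh-SIRT1 (brown) cells; filled points passed at an adjusted p under 0.05, thick bars are list medians and dotted lines the medians of all genes. The medians of E2F targets (-0.41 and -0.57) and Myc targets (-0.58 and -0.63) lie below the dotted lines at -0.14 and -0.13.

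Likeness of pattern was read as the Pearson correlation over the 16 arrays, which share the 4 groups, with 11184 genes well above background on every array; it is a description without a test. Mycn was most like Jag1 (0.993) and Hmces (0.992), Ccnd1 like Ext1 (0.979) and Cdk6 (0.962), and Ccne1 like Drg2 (0.987) and Dohh (0.986). Ccnd2 was most like Tubb3 (0.960) and Fmnl3 (0.955), of which Tubb3 is a neuronal tubulin. Myc was closest to Dusp12 (0.958) and Timm21 (0.951), Ccne2 to Marcksl1 (0.949) and Eloc (0.946), and Cdkn2a to Usb1 (0.934) and Zcchc14 (0.930). For Ccnd3, Cdkn1b and Rb1 the group means spanned less than 1 log2 unit, and none was sought.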

How the data were processed

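Agilent 1-colour (Cy3) whole mouse genome arrays measured RNA of the 4 groups. The deposited scanner files hold intensity values that, per the submitters' processing notes, come from Agilent Feature Extraction 9.5, and per the file headers from version 9.5.3.1, with probe positions in the build mm7. The deposited series matrix held values exactly equal to the processed intensity on 45018 spots of each array, with column medians of 46.0 to 91.4, so its scale is linear and uncentred. The sources used here do not give the isomer of RA.

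From the deposited intensity, control spots and spots with an outlier mark were left out, processed intensities were taken to log2 and the array's 75th percentile was subtracted, and spots of a probe were averaged. Per array, 60.3 to 68.6% of probes passed the scanner's test above background, the 75th percentile lay at 684 to 1155 and 0 to 4 spots were saturated, none of a member probe. A probe was kept if every array of 1 or more groups had it well above background (26375 of 41174, 17560 of them named through RefSeq), and the probe with the highest mean stood for its gene. Differences were tested in limma 3.58.1 (R 4.3.3) as two-sided contrasts of 4 group means over all 16 arrays (12 residual degrees of freedom), with p-values adjusted by Benjamini-Hochberg over 18282 genes and a threshold of 0.05. The fit was run on simulated data with independent arrays, which cannot show how duplicate or paired arrays affect the p-values.

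The 10 members were named in all contrasts, and up to 3 passing genes of each pathway list with the largest difference. The members and lists were chosen with earlier results of these data known. Labels do not say which arrays are duplicates, so p-values measure the spread between arrays, which may be partly technical. Arrays 3 and 4 of sh-Control RA differed least (SD of log2 differences 0.214). Vehicle arrays 2 and 3 were also close (0.321 for the sh-Control line, 0.293 for the sh-SIRT1 line), against 0.517 to 0.556 with array 1. Pairs among sh-SIRT1 RA arrays 3 to 6 gave 0.269 to 0.363, and against arrays 1 and 2 these gave 0.528 to 0.616. Independent samples may thus be fewer than arrays in any group, and p-values too small, those of Ccne2 and Cdkn2a in vehicle included. The deviations of same-numbered arrays of the 2 lines correlated at 0.36 to 0.54 in all 7 pairs within a treatment, which is where the pairing comes from, and at -0.21 to 0.22 across treatments. Alternatives were quantile normalization, normexp background correction (offset 50), no filter, other probe rules, slide and replicate blocks, the groups compared alone, and leaving out arrays; counts of the pathway lists under alternatives were added after seeing the data.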

Additional observations from a re-analysis of the deposited data

Results flagged for a closer look

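In groups of 4 or 6 arrays, 4 of 20 gene and group combinations held a single array far from its nearest neighbour relative to the group's range. Chance gives about 1 in 20 only where arrays and genes are independent. Here the genes share arrays, and some arrays may be duplicates, so the count is not a test. No share of all genes is given for that rule, so the count is not read as particular to the members. Over all genes, pairs with sh-Control RA array 1 or 2 had an SD of log2 differences of 0.633 to 0.736. Arrays 3 and 4 had 0.214. Ccnd2 was at 0.36 on sh-Control RA array 1, with the nearest other array at 2.83. Ccnd3 was at 4.71 on that same array, with the nearest at 3.55. Mycn was at 2.75 on sh-Control RA array 2, with the nearest at 1.68. Ccne2 was at -0.13 on sh-SIRT1 RA array 2, with the nearest at -0.52. Array 1 is the only sh-Control RA array with Ddx3y well above background and has the highest primitive endoderm sum (102). Array 2 has the highest fibroblast sum of its group (20.6).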

How the results depend on the processing

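Of the 10 members in 5 contrasts, 1278 values under alternatives kept direction and side of the threshold, 51 lost a call, 15 gained one and 26 changed sign. The calls of Ccnd1, Ccne1 and Mycn under RA in both lines, of Ccnd2 and Myc under RA in sh-SIRT1 cells, of Ccne2 in vehicle and of Ccnd1 between lines under RA held in all alternatives run. Cdkn2a in vehicle was lost in 8 of 28 and Mycn between lines under RA in 11 of 28, and under RA Cdkn1b in sh-Control cells in 18 of 27 and Ccne2 in sh-SIRT1 cells in 11 of 27. Cdkn2a and Myc in sh-Control cells and Cdkn1b in sh-SIRT1 cells were each lost in 1 of 27.

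Counts moved over 1.5 times as follows, against 1576, 3706, 8562 and 657 genes for the line in vehicle, the line under RA, RA in sh-Control and the difference of RA effects. With normexp they were 270, 1122, 4639 and 22. With slide as a block, 975 genes passed in vehicle and 92 for the difference of RA effects. With no filter 285 passed for the latter. With the replicate block within treatment 3516 genes passed in vehicle and 1656 for the difference of RA effects (1 member), and 4 members passed under RA, while the replicate block across treatments gave 169 for the difference. The within-treatment block changed no other member call beyond those given with the results. Without sh-Control RA arrays 2, 3 and 4, 2127 genes passed between lines under RA (1 member) and 324 for the difference (1 member), and 3 members for RA in sh-Control. In vehicle, 1 member passed with normexp, no filter and slide. Under RA, 1 passed with these and with only the groups compared. Leaving out single arrays gave 744 to 2232 genes and 1 to 3 members in vehicle, 2493 to 4304 and 1 to 3 between lines under RA, 7143 to 8713 and 5 to 7 for RA in sh-Control, 9342 to 11150 and 6 to 7 in sh-SIRT1, and 204 to 1876 and 0 to 1 for the difference; the 744 came without sh-Control vehicle array 3 and the 1876 without sh-Control RA array 1. Causes were not tested, beyond the smaller samples these have by construction.

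All sign changes were of values that had not passed. Mycn in vehicle became -0.030 with quantile normalization, -0.0030 with the mean of probes and -0.027 with slide, and ran from -0.017 to 0.062 over single arrays left out. Without sh-Control RA arrays 2, 3 and 4, the line difference under RA was 1.56 for Ccnd2, -0.27 for Ccnd3, 0.083 for Rb1 and -0.14 for Myc, that of RA in sh-Control cells -0.79 for Ccnd2, and the difference of RA effects -0.49 for Ccnd3. Ccnd3 under RA in sh-Control cells was -0.0044 with normexp and ran from -0.24 (without RA array 1) to 0.32 over single arrays left out. In the same way Rb1 ran from -0.13 to 0.40 in vehicle, from -0.30 to 0.025 between lines under RA, from -0.039 to 0.37 for RA in sh-SIRT1 cells and from -0.51 to 0.022 for the difference of RA effects. For that difference Ccne1 became 0.080 (quantile), 0.069 (mean of probes) and 0.015 (slide), and ran from -0.100 to 0.050. No member probe was saturated, and the number of arrays limits precision.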
